A study of Mus musculus with 2 samples.

Results

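The cytosolic ribosomal protein genes were examined in lung cells of NG2tdT mice kept in normoxia or hypoxia. Members were the annotated gene names that begin with Rpl or Rps followed by a digit, together with Rplp0, Rplp1, Rplp2 and Rpsa. Pseudogene names (9 with the ending "-ps") and the 10 names of the Rps6k kinases were left out. The rule found 86 of the 31053 genes in the count matrices. Of these, 52 names belonged to the large subunit and 34 to the small subunit, and 8 were names of paralogs such as Rps27l and Rpl22l1. Rps19bp1 met the naming rule but encodes a binding partner of a ribosomal protein.

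The mice were males of 2 to 4 months that carried the tamoxifen-inducible NG2-CreERTM driver and the Ai14 tdTomato reporter. All received tamoxifen at 2 mg per 30 g body weight and rested for 7 days. The Hypoxia group then breathed 10% oxygen for 21 days, and the Normoxia group had no treatment. Lungs were digested, and 1 droplet-based 3′ library was made for each group. The labels state a sort for tdTomato, whereas the study's text speaks of whole lung of WT animals from which cells with the leukocyte marker CD45 and the epithelial marker CD326 were depleted. Which preparation was used for these libraries was not settled here. Cre activity in this line depends on the NG2 (Cspg4) promoter, which marks pericytes but is not exclusive to them. The number of mice behind each library is not given in the labels, and the description speaks of 3 replicates without saying whether cells were pooled. With 1 library per group there was no replicate check and no test, so every interval below is a 95% interval that covers counting error only, and mouse, library and exposure cannot be told apart.

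Each cytosolic ribosome joins a small subunit, which reads the mRNA, to a large subunit, which forms the peptide bonds. The subunits hold ribosomal RNA and a set of small basic proteins that are needed in nearly equal amounts. Their mRNAs are among the most abundant in growing cells, and resting lymphocytes are known to devote a large part of their modest mRNA pool to them. Most of these mRNAs start with a 5′ terminal oligopyrimidine (TOP) tract, a run of C and T letters through which the mTORC1 kinase controls their translation. Low oxygen is known to restrain mTORC1 and protein synthesis in cultured cells.

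Counts are of unique molecular identifiers (UMIs), each of which tags 1 captured mRNA molecule. There were 1323874 UMIs over 373 barcodes in Normoxia and 1989423 over 613 in Hypoxia. After the filters 293 and 453 cells remained, with a median of 3135 and 2818 UMIs per cell. The libraries shared 2 barcodes, 1 of them among the retained cells. The cells were grouped into 14 clusters without using the ribosomal protein genes, and clusters were named from marker genes. Endothelial cell-like cells were the most numerous class, with 94 Normoxia and 189 Hypoxia cells in clusters 2, 3 and 10. No cluster was named for pericytes. The retained cells held 1 and 2 UMIs of Cspg4 in the Normoxia and Hypoxia library, and 37 and 14 UMIs of Pdgfrb. Other pericyte markers had 98 and 20 (Kcnj8), 34 and 5 (Cox4i2) and 14 and 4 UMIs (Higd1b). Cluster 7, left unnamed, had 7 fibroblast, 4 smooth muscle and 3 pericyte markers, so mural cells may be among its 41 Normoxia and 6 Hypoxia cells. Leukocyte-like clusters were found in both libraries although a tdTomato sort (labels) or CD45 depletion (study text) was stated, and 57 Normoxia and 126 Hypoxia cells had a UMI of the leukocyte gene Ptprc (CD45). No feature was named for tdTomato, so the tdTomato sort could not be checked from the counts.

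The start regions of these genes are shown because the TOP tract is the feature by which the group is best known. RefSeq promoter sequences (GRCm38.p6) were matched by symbol for 66 of the 86 genes, at 78 annotated starts. A run of at least 8 C or T letters with at least 1 T was searched for on the gene's strand from 10 bases before to 50 bases after each start. Such a run was present in 45 of the 66 genes (68.2%), compared with 24.0% of all 27025 genes in the same table. The motif CCGGAAG, a core bound by ETS-family factors, was found on either strand within the 300-base window of 26 of them (39.4%) against 9.93% of all genes. Its reverse complement begins with pyrimidines and can overlap the run. TATAAA was found on either strand in 7 (10.6%) against 15.7% of all genes. These matches describe letters only and do not show a start site in these cells.

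The windows printed here belong to some of the genes with the highest and lowest ratios and of the paralog pairs. Rps4x, Rpl23, Rps13, Rpl27, Rpsa, Rplp0 and Rpl22 are also such genes. They had no run in the searched span and are not printed, so the printed windows overstate how common the run is. Each printed window holds 30 bases from the gene's strand, written 5′ to 3′. It was placed around the pyrimidine run, marked by capitals, where 1 was found within the searched span, and otherwise around the annotated start. The windows of Rpl12, Rpl36a and Rpl36al lie wholly after the start, with runs that begin 39, 27 and 28 bases after it.
Rpl12, chr2:32961732-32961761, plus strand: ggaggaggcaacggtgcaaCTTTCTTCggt
Rpl22l1, chr3:28805499-28805528, plus strand: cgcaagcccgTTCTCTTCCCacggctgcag
Rps15a, chr7:118116130-118116159, minus strand: tctttctgccaTCTTCCCTCgccggtgagt
Rps27, chr3:90213632-90213661, minus strand: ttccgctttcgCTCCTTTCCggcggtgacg
Rps27rt, chr9:114982725-114982754, minus strand: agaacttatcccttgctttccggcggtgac
Rps27l, chr9:66946071-66946100, plus strand: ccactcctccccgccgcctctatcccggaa
Rpl36a, chrX:134585672-134585701, plus strand: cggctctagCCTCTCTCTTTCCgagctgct
Rpl36al, chr12:69184020-69184049, minus strand: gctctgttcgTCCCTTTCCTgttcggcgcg
Rpl7a, chr2:26910790-26910819, plus strand: caattccCTCTTCTTTCTTTCTCCagcagc
The runs differed in length and position. The Rps27l window also holds a run of C and T letters, which is not in capitals because it begins before the searched span. The run of Rpl36a had 13 letters and began 27 bases after the annotated start, and that of Rpl7a had 17 letters and began 10 bases before it. In Rps27 the run began 2 bases before the start, and its window shared an unbroken stretch of 15 bases with that of Rps27rt, a copy of Rps27 on another chromosome.

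The members differed widely in abundance, and a few copies were nearly silent. Over both libraries 80 of 86 members had at least 1000 UMIs and 83 had at least 100. Rps29 had the most UMIs (17243), followed by Rpl41 (15701) and Rps27 (15170). With paralogs and Rps19bp1 set aside, Rpl7a (2546) and Rpl5 (2746) had the fewest. No UMI of Rpl10l, 4 of Rpl39l and 13 of Rpl3l were found; Rpl10l and Rpl39l are known from the testis and Rpl3l from striated muscle. Rpl7l1, a nucleolar relative of Rpl7, had 168 UMIs and Rps19bp1 had 134. UMI counts of a 3′ library do not grow with transcript length, and they still depend on how well each gene's last bases can be mapped. The top 10 members held 22.2% of all UMIs of the group and the top 20 held 38.5%.

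Reads from some members can be assigned only with uncertainty. Of all stretches of 90 bases in the last 300 bases of the GENCODE transcripts, a part recurred in another gene of the matrix for 21 members, and more than 50% recurred for 9. The highest shares were found for Rpl35 (95.3%, with Gm10269 and Gm2000), Rpl36a (91.0%, with Rpl36a-ps1), Rps27rt (86.3%, with Rps27) and Rps12 (84.1%, with Rps12-ps3). For Rpl10 it was 80.6%, for Rpl7a 64.9%, for Rpl27 55.05%, for Rpl36al 53.4% and for Rps27 51.7%. For the other 65 members no stretch recurred. Values of the 9 genes above 50% are given below with this limit.

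Which cell types carry these mRNAs was asked first. Cell class separated the ribosomal protein share far more than the exposure did. In lymphoid cells 31.7% to 44.6% of all UMIs came from these genes, and in endothelial cell-like cells 9.60% to 13.0%. In the Normoxia library the share was 44.6% in B cell-like cells (31 cells; interval 44.4 to 44.9), 38.0% in T or NK cell-like cells (13 cells; 37.6 to 38.4) and 33.6% in group 2 innate lymphoid cell-like cells (18 cells). It was 28.7% in macrophage or monocyte-like cells (9 cells), 18.4% in fibroblast-like cells (39 cells) and 9.60% in endothelial cell-like cells (94 cells; 9.49 to 9.72). Neutrophil-like cells were lowest at 5.16%, but only 2 cells stood behind this value. In the Hypoxia library the share was 43.5% in T or NK cell-like cells (76 cells), 37.8% in group 2 innate lymphoid cell-like cells (5 cells), 31.7% in B cell-like cells (54 cells), 23.8% in macrophage or monocyte-like cells (35 cells), 17.9% in fibroblast-like cells (21 cells), 13.0% in endothelial cell-like cells (189 cells) and 8.21% in neutrophil-like cells (28 cells). The order of the 4 non-lymphoid classes was the same in both libraries, and that of the 3 lymphoid classes was not.

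**Figure D1:**
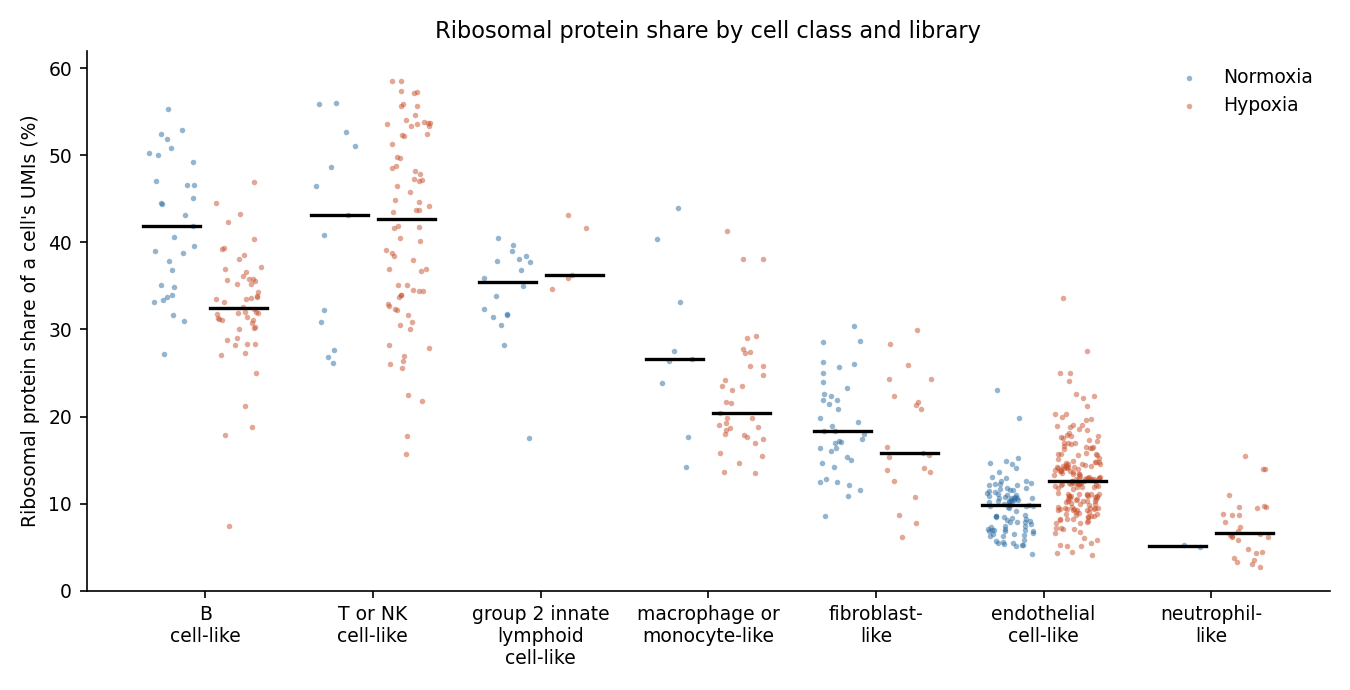
Ribosomal protein share of each cell's UMIs (y axis, percent) for 7 cell classes (x axis); each point is a cell, blue for Normoxia and orange for Hypoxia, and black bars are medians over cells. Lymphoid classes sit above the endothelial cell-like and neutrophil-like cells in both libraries, and the B cell-like medians are 41.8% in Normoxia and 32.5% in Hypoxia.

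The range within a class was wide. Single T or NK cell-like cells ran from 26.2% to 56.0% in Normoxia and from 15.7% to 58.6% in Hypoxia. Single endothelial cell-like cells ran from 4.19% to 23.0% and from 4.15% to 33.6%. The middle 50% of cells of the T or NK and endothelial classes did not overlap in either library. Depth differed between classes. In the Hypoxia library the median was 690.5 UMIs in neutrophil-like, 4470 in fibroblast-like and 5006 in macrophage or monocyte-like cells. The share also varied with depth within classes. In T or NK cell-like cells the median share of the shallower and deeper 50% of cells was 48.6% and 42.0% in Normoxia. In Hypoxia it was 36.6% and 51.7%. In B cell-like cells it was 35.9% and 49.2% in Normoxia and 32.6% and 32.0% in Hypoxia. The part of depth was not tested. Barcodes that were left out for mitochondrial content carried 19.97% (51 Normoxia barcodes) and 18.8% (141 Hypoxia barcodes) ribosomal protein UMIs in sum. The medians over these barcodes were 12.6% in Normoxia and 15.7% in Hypoxia, in the opposite order.

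Among the clusters left without a name, the share lay between the lymphoid and endothelial cell-like values. It was 20.3% in Normoxia and 21.3% in Hypoxia for cluster 9, led by Retnla and C1qa. It was 16.6% and 18.3% for cluster 7, led by Hhip and Igfbp3, and 14.3% and 15.6% for cluster 6, led by Scgb1a1 and Vwf. Cluster 13, led by the lymphatic genes Ccl21a and Mmrn1, had 16.6% and 20.9% with 4 and 6 cells. Cluster 6 had all 11 endothelial markers and cluster 13 had 9. Both stayed unnamed because their leading genes held more markers of another class, airway epithelial or lymphatic. Neither is part of the endothelial cell-like values.

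The difference between classes was carried by nearly the whole gene group. T or NK cell-like cells had a share 3.96-fold that of endothelial cell-like cells in Normoxia (log2 ratio 1.99, interval 1.96 to 2.01) and 3.35-fold in Hypoxia (1.74, 1.73 to 1.76). Of 82 members with at least 20 UMIs in the compared Normoxia cells, 80 were higher in T or NK cell-like cells by at least 0.5 on the log2 scale and 2 were lower. Among all 2842 genes tested 14.8% were higher and 60.7% lower by that much. In Hypoxia 80 of 83 were higher and 3 lower, beside 13% and 62.9% of all 5719 genes. The lower genes were Rps27l and Rpl7l1 in both libraries and Rps19bp1 in Hypoxia. The median log2 ratio of the members was 1.94 in Normoxia and 1.68 in Hypoxia, and that of all genes −0.85 and −0.89. B cell-like cells were 4.65-fold over endothelial cell-like cells in Normoxia and 2.44-fold in Hypoxia. Of the members 80 of 82 were higher and 2 lower in Normoxia (13.3% and 68.8% of all genes), and 79 of 83 and 2 in Hypoxia (13.3% and 62.6%). Rps27l was again among the lower genes in both, with Rpl7l1 in Normoxia and Rps19bp1 in Hypoxia.

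Rpl12 (ENSMUSG00000038900, chr2:32961559-32965345 on GRCm38), a protein of the large subunit's stalk base, differed most between these classes. It was at 4076 CPM (UMIs scaled to a total of 1e6 per class and library) in T or NK cell-like and 381 CPM in endothelial cell-like cells of the Normoxia library, a log2 ratio of 3.42 (3.08 to 3.77). In the Hypoxia library it was at 4542 and 679 CPM (2.74, 2.58 to 2.91). Rpsa, a small subunit protein that is also known as the laminin receptor, followed with log2 ratios of 3.00 and 2.57. Those of Rps15a were 2.87 and 2.56, and those of Rplp0, the scaffold of the acidic stalk, 2.55 and 2.54. The other stalk proteins, Rplp1 and Rplp2, had 2.48 and 2.45 in Normoxia and 2.09 and 2.00 in Hypoxia.

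At the other end stood Rps27l (ENSMUSG00000036781, chr9:66946086-66949516), a p53-inducible paralog of Rps27. Rps27l was at 184 CPM in T or NK cell-like and 397 CPM in endothelial cell-like cells in Normoxia (log2 ratio −1.11, interval −2.16 to −0.21), and at 198 and 450 CPM in Hypoxia (−1.19, −1.64 to −0.75). It was the only member with at least 100 UMIs that was lower in the lymphoid class, and it was so in both libraries. Rpl7a (1.12 and 0.82) and Rpl31 (1.15 and 0.91) were higher by less than the group as a whole. Rpl41, the smallest ribosomal protein, had log2 ratios of 1.33 and 1.24, also below the summed ratio in both libraries. Over the 82 members with a ratio in both libraries Pearson's r between the libraries was 0.951 and Spearman's rho 0.887. This is a correlation across genes, which are not independent replicates and share library chemistry and read mapping.

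**Figure D2:**
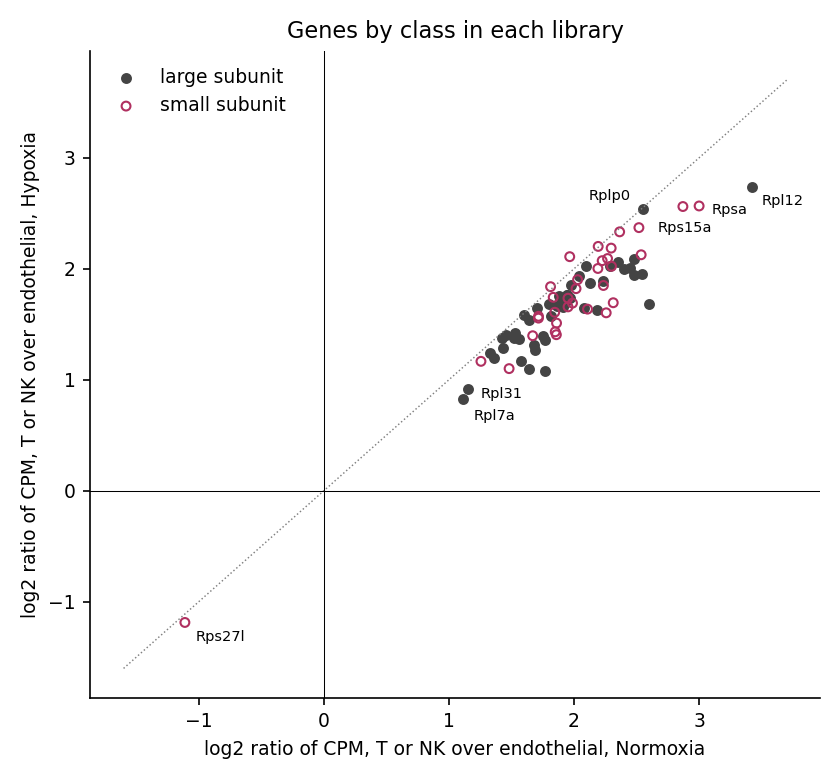
Log2 ratio of CPM in T or NK cell-like over endothelial cell-like cells for 81 genes with at least 100 UMIs, in Normoxia (x axis) and Hypoxia (y axis); filled points are large subunit genes, open points small subunit genes, and the dotted line marks equal values. Rps27l is the only gene below 0 on both axes, and Rpl12 lies farthest to the right.

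Whether hypoxia changed these mRNAs was asked within each class. Over all retained cells the share was 21.6% in Normoxia and 22.1% in Hypoxia (log2 ratio 0.037), and among 83 members 1 (Rps19bp1) was higher and 0 lower by at least 0.5 (19.1% and 18.4% of all genes). This near equality held differences of opposite sign. Endothelial cell-like cells had a higher share in Hypoxia, B cell-like and macrophage or monocyte-like cells a lower one. The macrophage or monocyte direction turned (log2 ratio 0.013, −0.010 to 0.037) when cells were named 1 by 1 from their own markers.

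In endothelial cell-like cells the share was 9.60% in Normoxia (9.49 to 9.72) and 13.0% in Hypoxia (12.9 to 13.1), 1.35-fold higher (log2 ratio 0.44, 0.42 to 0.46). Cell medians were 9.84% and 12.6%, with quartiles of 7.15% and 11.3% in Normoxia and 9.79% and 14.8% in Hypoxia. Of the 189 Hypoxia cells, 141 (74.6%) lay above the Normoxia median and 5 above the highest Normoxia cell, so the cells overlapped widely. The difference was not the same in the 3 endothelial cell-like clusters. In cluster 2, led by Plvap and with Gpihbp1, a capillary lipase anchor, among its leading genes, the share was 10.5% in Normoxia (46 cells) and 15.1% in Hypoxia (49 cells; log2 ratio 0.52, 0.48 to 0.55). In cluster 3, led by the neurotrophin receptor Ntrk2, it was 10.6% (27 cells) and 13.6% (118 cells; 0.36, 0.32 to 0.39). In cluster 10, led by the carbonic anhydrase Car4, it was 7.49% (21 cells) and 7.42% (22 cells; −0.015, −0.065 to 0.035). Cluster 3 held 118 of the 189 Hypoxia cells and cluster 2 held 46 of the 94 Normoxia cells. With equal weight per cluster the log2 ratio was 0.29. It was also 0.29 when cells were named 1 by 1 from their own markers (105 Normoxia and 211 Hypoxia cells). The unnamed cluster 6, with all endothelial markers, had a log2 ratio of 0.13 (0.096 to 0.16). The differences between clusters were not tested.

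**Figure D3:**
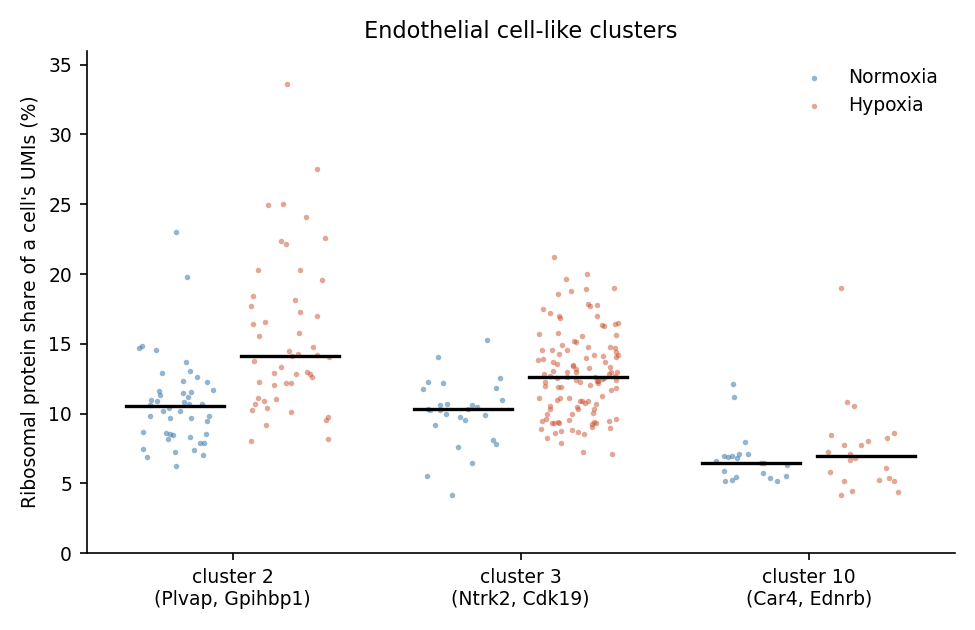
Ribosomal protein share of each cell's UMIs (y axis, percent) in the 3 endothelial cell-like clusters (x axis, with leading genes); points are cells, blue for Normoxia and orange for Hypoxia, and black bars are medians. Medians are 10.5% and 14.2% in cluster 2, 10.3% and 12.6% in cluster 3, and 6.46% and 6.94% in cluster 10.

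Depth and cell markers of these cells were compared alongside. Endothelial cell-like cells had a median of 2498 UMIs in Normoxia and 2802 in Hypoxia. The nuclear RNAs Malat1 and Neat1 took a median of 2.92% and 2.57% of UMIs, and dissociation stress genes 0.30% and 0.22%. T or NK markers were at 3.93 CPM (1 of 12 genes with a UMI) and 8.18 CPM (4 of 12), with Cd3e, Cd3d and Cd3g at 0 in both. B cell markers were at 62.8 CPM (4 of 10) and 68.7 CPM (6 of 10), with Ms4a1 at 0 in both. Red blood cell markers were at 597 CPM (5 of 6) and 229 CPM (4 of 6), and fibroblast markers at 169 CPM (10 of 11) and 31.1 CPM (8 of 11). Macrophage or monocyte markers were at 23.6 CPM (3 of 12, in 6.38% of cells) in Normoxia and 60.5 CPM (4 of 12, in 18.5% of cells) in Hypoxia. Lymphatic endothelial markers were at 302 and 111 CPM (3 of 7 in both), with Prox1 and Pdpn at 0. In the 77 and 152 cells without any UMI of a T or NK, B or neutrophil marker the log2 ratio was 0.42. It was 0.40 in the 52 and 116 cells that also lacked macrophage or monocyte and fibroblast markers, and 0.39 in cells with 1000 to 5000 UMIs. The part of the other differences was not tested.

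The endothelial difference was broad across the group. Of 83 members with at least 20 UMIs, 28 were higher in Hypoxia by at least 0.5 on the log2 scale, where 18% of all 5949 genes were, and 0 were lower, where 17.8% of all genes were. The count of 28 includes Rps19bp1 (10 and 43 UMIs). The ratio was above 0 for 81 members, with a median of 0.43 and quartiles of 0.32 and 0.54, and the median of all genes was −0.01. In cluster 2, 44 of 81 members were higher and 0 lower (20.9% and 19.8% of all genes). In cluster 3, 17 of 83 were higher and 0 lower (23.5% and 21.3% of all genes), with 80 above 0. In cluster 10, 4 of 81 were higher and 3 lower (18.4% and 18.2% of all genes). The share of higher members did not exceed that of all genes in clusters 3 and 10. In cluster 10 the higher genes were Rpl12, Rpl10, Rpl22l1 and Rps26 and the lower ones Rps12, Rpl15 and Rpl36al, at 33 to 105 UMIs in Hypoxia, and they are named after their values were seen. Median member ratios of these clusters were 0.51, 0.38 and −0.022, beside −0.016, 0.015 and 0.0040 for all genes. These counts use a fold threshold and no test. The endothelial count moved by more than 1.5 times in other settings, to 7 when cells were named 1 by 1 from their own markers and to 17 at a finer clustering. The share of all genes past the fold was not computed in those settings. Whether the members exceeded it there is therefore not known.

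Among single genes, Rpl12 had the largest endothelial difference of those with at least 100 UMIs, from 381 CPM in Normoxia to 679 CPM in Hypoxia (log2 ratio 0.83, 0.51 to 1.17). Rps4x (ENSMUSG00000031320, chrX:102184941-102189394), the X-linked copy of S4, was at 1264 and 2165 CPM (0.78, 0.60 to 0.96). Rpl22l1, a paralog of Rpl22, was at 279 and 466 CPM (0.74, 0.36 to 1.14), and Rpl23, which binds MDM2 when free of ribosomes, at 1170 and 1939 CPM (0.73, 0.54 to 0.92). The intervals of Rpl12, Rps4x and Rpl23 lay above the ratio of the summed group, as did those of 9 members in all. At the low end Rps27rt was at 530 and 525 CPM (−0.01, −0.31 to 0.29) and Rpl36al at 448 and 470 CPM (0.07, −0.25 to 0.40). Rps13 was at 1041 and 1131 CPM (0.12), and Rpl27 at 887 and 977 CPM (0.14). The intervals of these 4 genes reached 0 and lay below the summed ratio, as did 11 intervals in all. Rps27rt, Rpl36al and Rpl27 share more than 50% of their last bases with other genes.

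Members of the named functional subsets all had endothelial ratios above 0. The acidic stalk proteins had log2 ratios of 0.25 (Rplp0), 0.39 (Rplp1) and 0.55 (Rplp2) in endothelial cell-like cells. Rpl5 (0.21) and Rpl11 (0.28), which form the 5S particle that can bind MDM2, lay under the group median. Rps6, the S6 kinase substrate, was at 1335 and 1821 CPM (0.45, 0.27 to 0.63), Rps27a, a ubiquitin fusion, at 0.34, and Rpl10, which completes the large subunit, at 0.53. The most abundant members had ratios of 0.44 (Rps29), 0.21 (Rpl41) and 0.53 (Rps27). The large to small subunit UMI ratio, counted without Rpl7l1 and Rps19bp1, was 1.33 in Normoxia and 1.28 in Hypoxia (log2 ratio −0.053, −0.081 to −0.026). It was lower in the lymphoid classes, at 1.20 and 1.14 in T or NK cell-like and 1.19 and 1.12 in B cell-like cells.

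In T or NK cell-like cells the summed share was 38.0% in Normoxia and 43.5% in Hypoxia (log2 ratio 0.19, 0.17 to 0.21), but the cell medians were 43.1% and 42.7%. The deepest Normoxia cell held 17959 of that class's 59856 UMIs. Without the 3 cells with most UMIs the log2 ratio was −0.025, and in cells with 1000 to 5000 UMIs −0.052, so no direction was set. Endothelial markers in these cells were at 1854 CPM in Normoxia (10 of 11 genes with a UMI) and 217 CPM in Hypoxia (8 of 11), and fibroblast markers at 618 CPM (2 of 11) and 213 CPM (3 of 11). Plasma cell markers were at 33.4 CPM (2 of 7) and 1084 CPM (7 of 7). Only 3 Normoxia cells lacked all of these markers, too few for a ratio, and the part of these markers was not tested. Among 81 members, 2 were higher by at least 0.5 and 0 lower, where 20% and 25% of all 1734 genes were. The 2 were Rpl36a (2239 and 3249 CPM; 0.54) and Rps27 (9773 and 13832 CPM; 0.50), both with shared end sequence. Rps18 followed with 0.39. The lowest ratios were those of Rpl36al (−0.34, −0.71 to 0.04), Rpl13a (−0.29, −0.46 to −0.12), Rpl22l1 (−0.17) and Rpl7a (−0.15). Cells with a UMI of the cytotoxic genes Nkg7 or Ccl5 had a share of 32.7% in Normoxia (6 cells) and 44.4% in Hypoxia (42 cells), and cells without had 46.9% (7 cells) and 41.7% (34 cells). The order of the subsets thus differed between the libraries, with few Normoxia cells in each.

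B cell-like cells had the opposite difference from endothelial cell-like cells. The share was 44.6% in Normoxia and 31.7% in Hypoxia (31.5 to 32.0), 0.711-fold (log2 ratio −0.49, −0.51 to −0.48). Cell medians were 41.8% and 32.5%, and of 54 Hypoxia cells 4 lay above the Normoxia median. Of 81 members 38 were lower by at least 0.5 and 0 higher, where 17.5% of all 1384 genes were lower and 29.8% higher. The median ratio was −0.48, and 80 members were below 0. The genes named for this class were chosen after its values were seen. Rps12 was at 5499 CPM in Normoxia and 2677 CPM in Hypoxia (−1.04, −1.22 to −0.86) and shares 84.1% of its end with Rps12-ps3. Rplp1 was at 8770 and 4586 CPM (−0.94) and Rplp0 at 8388 and 4487 CPM (−0.90). Rps27 was nearly level, at 13349 and 12470 CPM (−0.10, −0.19 to −0.0026), and Rpl7a, Rpl10 and Rpl12 had ratios of −0.15, −0.16 and −0.18.

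The B cell-like cells of the libraries also differed in kind and depth. The median was 4114 UMIs in Normoxia and 1862 in Hypoxia. S100a6, a calcium-binding protein, was at 3543 and 307 CPM, Ighd, the heavy chain of IgD, at 136 and 890 CPM, and Ighm, that of IgM, at 2767 and 10093 CPM. Igkc, an immunoglobulin light chain, was at 7659 and 62666 CPM, and its UMIs are part of the total of every share. The log2 ratio with immunoglobulin and other abundant genes out of the total is given in the last section. S100a6 was detected in 18 of the 31 Normoxia cells (58.1%) but in 5 of the 54 from Hypoxia (9.26%). Those cells had a ribosomal protein share of 46.6% and 42.5%. In the cells without it the share was 35.7% in Normoxia (13 cells) and 30.6% in Hypoxia (49 cells; log2 ratio −0.22). In cells with 1000 to 5000 UMIs the log2 ratio was −0.18. Jchain, a plasma cell gene, was found in 3 Hypoxia cells, which had a share of 20.1%; without them the log2 ratio was −0.40. Plasma cell markers in all were at 572 CPM (3 of 7) and 5959 CPM (6 of 7), and T or NK markers at 361 CPM (5 of 12) and 675 CPM (8 of 12). Cells with a UMI of Ighd had a share of 43.2% in Normoxia (15 cells) and 34.2% in Hypoxia (42 cells). Cells without Ighd had 45.8% (16 cells) and 25.8% (12 cells). The Hypoxia share was the lower in each of these subsets. The difference was larger than over the whole class in the cells without Ighd and smaller in the other subsets.

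**Figure D4:**
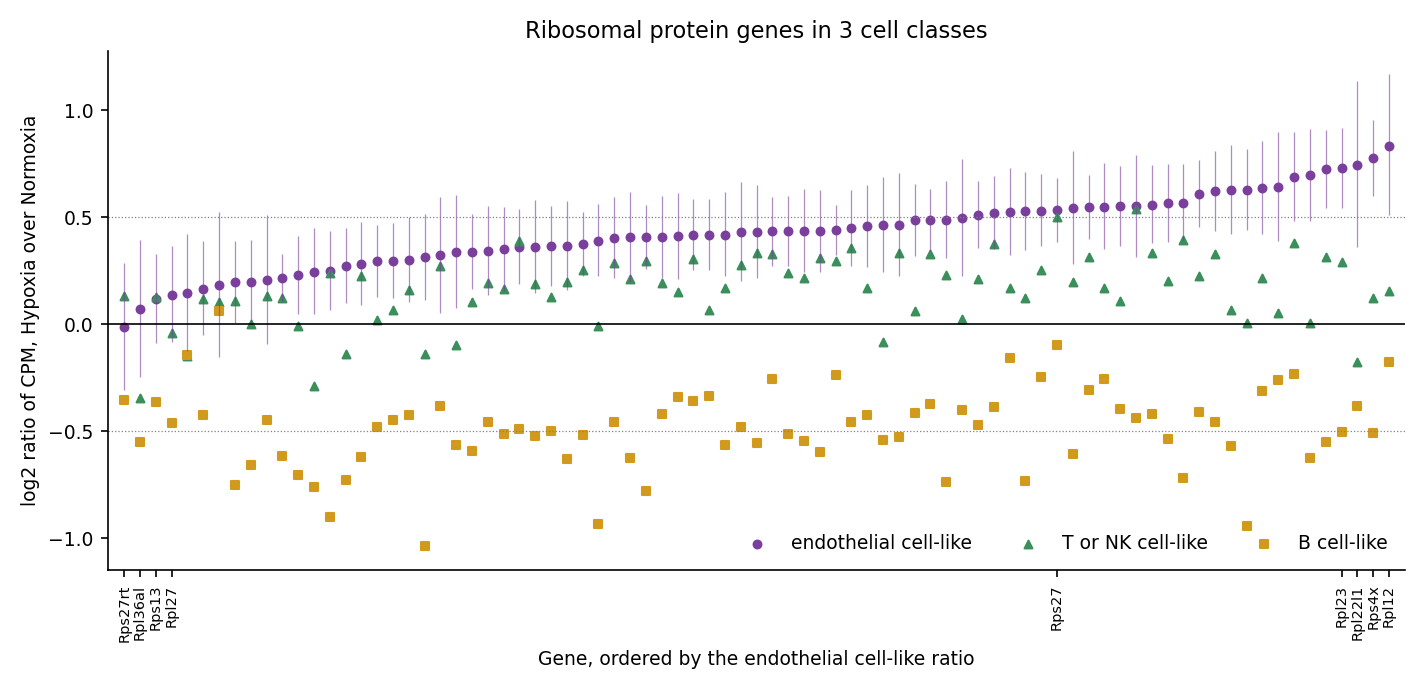
Log2 ratio of CPM, Hypoxia over Normoxia (y axis), for 81 genes with at least 20 UMIs in each of 3 classes, ordered by the endothelial cell-like ratio (x axis, 9 genes labelled); circles are endothelial cell-like with 95% counting intervals, triangles T or NK cell-like and squares B cell-like cells, and dotted lines mark 0.5 and −0.5. Circles lie mostly above 0 and squares mostly below it, with Rps27 the square nearest to 0 among those with at least 100 UMIs.

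The remaining classes showed smaller or less certain differences. In macrophage or monocyte-like cells the share was 28.7% in Normoxia (9 cells) and 23.8% in Hypoxia (35 cells; log2 ratio −0.27). Cluster 14, led by the alveolar macrophage genes Chil3 and Ear2, had 15 Hypoxia and no Normoxia cells and a share of 19.9%. In cluster 12 alone, found in both libraries, the share was 28.7% and 26.7% (−0.10), and the sign turned when cells were named 1 by 1. Among 81 members 10 were lower and 1, Rps27l (14 and 101 UMIs; log2 ratio 0.61), higher, where 16.2% and 35.7% of all genes were. In fibroblast-like cells the share was 18.4% and 17.9% (−0.044, −0.069 to −0.018), with 2 of 81 members, Rpl22l1 and Rpl36al, lower and 0 higher (25.5% and 16.8% of all genes), and its sign turned in other settings. Group 2 innate lymphoid cell-like cells had 33.6% and 37.8% with 18 and 5 cells.

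Paralogs can replace their partners in the ribosome, and their share of the pair varied with the class. Rps27l made up 17.3% of the UMIs of Rps27l and Rps27 together in endothelial cell-like cells of the Normoxia library (14.3 to 20.6) and 14.1% in Hypoxia (12.6 to 15.7). In fibroblast-like cells it was 9.62% and 7.19%, and in macrophage or monocyte-like cells 5.30% and 9.18%. In T or NK cell-like cells it was 1.85% (0.92 to 3.28) and 1.41% (1.05 to 1.84), and in B cell-like cells 0.710% and 0.793%. The endothelial intervals did not overlap the lymphoid ones in either library. Rps27l had no recurring stretch, but 51.7% of the end stretches of Rps27 recur in Rps27rt, so the UMIs of Rps27 may be too low and the level of these shares is uncertain.

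Rpl22l1 had no such order. Its share of the Rpl22 pair was 31.8% and 38.5% in endothelial cell-like, 51.8% and 42.2% in fibroblast-like, 50.8% and 43.0% in T or NK cell-like and 37.0% and 37.1% in B cell-like cells. Rpl36al had 37.7% and 30.3% of its pair with Rpl36a in endothelial cell-like cells and 37.4% and 24.5% in T or NK cell-like cells. The UMIs of this pair share end sequence with other genes, so its shares are uncertain. Rpl22l1 had no recurring stretch.

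**Figure D5:**
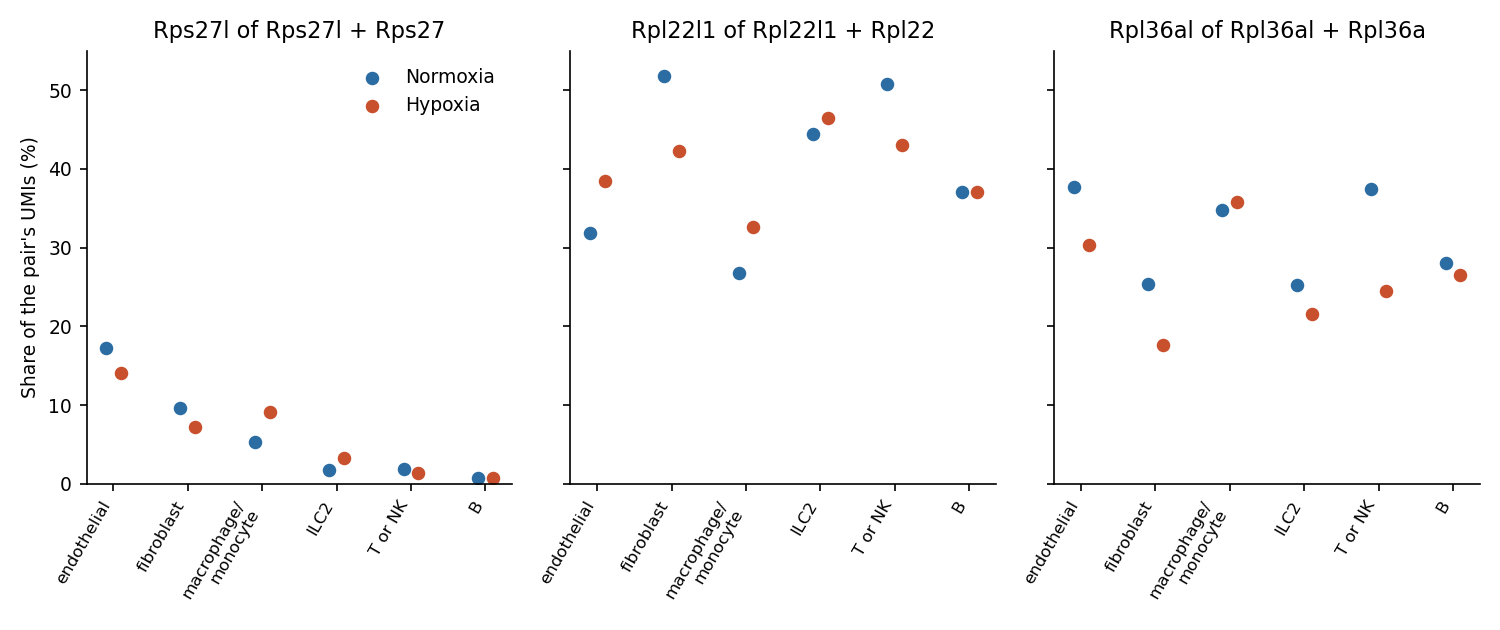
Share of a paralog pair's UMIs that came from Rps27l, Rpl22l1 or Rpl36al (y axis, percent) in 6 cell classes (x axis, ILC2 for group 2 innate lymphoid cell-like), blue for Normoxia and orange for Hypoxia, 1 point per library without error bars. Rps27l is highest in endothelial cell-like cells, at 17.3% and 14.1%, and under 4% in the 3 lymphoid classes.

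Other genes of the translation machinery were compared as lists. Between classes, the summed log2 ratio of the elongation factors in T or NK cell-like over endothelial cell-like cells was 1.39 in Normoxia and 1.32 in Hypoxia, with 5 of 6 and 7 of 7 genes higher by at least 0.5. Of all genes 14.8% were higher in Normoxia and 13% in Hypoxia, and 60.7% and 62.9% were lower. Other mRNAs with a TOP tract had 1.48 and 1.27, with 16 and 13 of 18 higher and 1 lower in each library. The initiation factors had 0.15 and 0.02 (9 of 31 and 7 of 35 higher, 11 and 14 lower), and the genes of mTORC1 and translation control −0.73 and −0.42.

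In endothelial cell-like cells the Hypoxia over Normoxia ratio of the sum was 0.23 for the elongation factors (1 of 7 higher, 1 lower) and 0.13 for other TOP mRNAs (3 of 18 higher, 0 lower; median 0.16), where 18% of all genes were higher and 17.8% lower. The scaffold gene Rack1 had 0.64, Eef1a1 0.37 and Tpt1, a TOP mRNA of a growth-related protein, 0.42, whereas Tmsb4x had −0.29. Initiation factors had −0.01 (5 of 35 higher, 1 lower), biogenesis factors −0.05 (5 of 27 higher, 5 lower), and mTORC1 and translation control genes −0.17 (2 of 14 in each direction), counts to be read against the same shares of all genes. Each of these summed ratios was below the 0.44 of the ribosomal protein genes. In B cell-like cells these 5 lists gave −0.28, −0.30, −0.18, −0.20 and −0.09, and the last 2 had intervals that reached 0.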

How the data were processed

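Single-cell 3′ gene expression was measured in 1 Normoxia and 1 Hypoxia library. The values deposited by the authors are raw counts, 1 matrix of genes by barcodes for each library. The file headers name software version 3.1.0, and the submitters' processing notes name mm10, Cell Ranger and Seurat. The study's methods name STAR. Reads that map to several genes are not counted in such tables, which lowers genes with near-identical copies.

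Cells with 200 to 6000 genes and at most 5% mitochondrial UMIs were kept, as in the study's methods. Both libraries were clustered together (scanpy 1.11.5; counts scaled to 10000, 2000 variable genes without the ribosomal protein, contractile and hypoxia-responsive genes, 15 components, 15 neighbours, Leiden resolution 1.0). A cluster was named "-like" for the class with most markers detected in 25% of its cells at 2 times the median cluster's level. At least 3 such markers were needed. Ties stayed unnamed, as did clusters whose 10 leading genes held more markers of another class. So did clusters of low depth whose leading genes held none of the class's markers. Doublets were kept; Scrublet marked 1 Normoxia and 2 Hypoxia cells.

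UMIs were summed per class and library. Shares carry exact Clopper-Pearson 95% intervals and ratios exact conditional binomial intervals; no test was made. Genes with at least 20 UMIs were counted as higher or lower at a log2 ratio of 0.5. Named genes were the 4 highest and 4 lowest ratios among members with at least 100 UMIs, plus stalk proteins, paralogs and other members listed by role; some of the genes so chosen are not reported here. The members and lists were chosen with earlier results of these data known. In simulated data for the endothelial comparison (1576 genes with at least 100 UMIs), 95.9% of intervals held the true value. Intervals excluded 0 with the right sign for 93% of changes of 1 and 60% of changes of 0.5 on the log2 scale. The simulated counts held counting error only, as the intervals assume, so mouse, library and cell variation was not checked. The calls at a log2 ratio of 0.5 and 20 UMIs use another rule, and these rates do not describe them. Gene ends came from GENCODE M21 and start regions from RefSeq (GRCm38.p6).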

Additional observations from a re-analysis of the deposited data

Results flagged for a closer look

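The ribosomal protein share moved in opposite directions between classes, and this difference was not tested. The log2 ratio of Hypoxia over Normoxia was 0.44 in endothelial cell-like, 0.19 in T or NK cell-like and 0.17 in group 2 innate lymphoid cell-like cells. It was −0.49 in B cell-like, −0.27 in macrophage or monocyte-like and −0.044 in fibroblast-like cells. The directions in T or NK cell-like, fibroblast-like and macrophage or monocyte-like cells turned in at least 1 other setting.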

How the results depend on the processing

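Of 136 values recomputed for the shares, ratios and counts under 21 other settings, 71 stayed within the counting interval or within 1.5 times the count, 60 moved and 5 reversed. Of 192 values of 24 named genes 172 stayed, 20 moved and 0 reversed. No paired analysis was possible because each group had 1 library. Cell number, depth and the single library per group limit every value, and the settings for depth, single clusters and marker-free cells were chosen after seeing the data; causes were not tested. Values below are log2 ratios unless named as counts. Under the other settings the share of all genes past the fold was not computed beside the counts.

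Endothelial cell-like cells (0.44): 0.40 with up to 10% mitochondrial UMIs, 0.47 without Scrublet calls, 0.48 and 0.40 at Leiden resolutions of 0.5 and 2.0, 0.29 by single-cell markers, 0.41 with equal weight per cell, 0.29 with equal weight per cluster, 0.39 in cells of 1000 to 5000 UMIs, 0.42 in cells without T or NK, B and neutrophil markers and 0.40 in cells that also lacked macrophage and fibroblast markers. The count of 28 higher genes became 17 at resolution 2.0, 7 by single-cell markers and 0 at a fold of 1.0, and the subunit ratio (−0.053) became −0.088 by single-cell markers.

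All cells (0.037): 0.019 at 10% mitochondrial UMIs, 0.065 with up to 4000 genes, 0.045 without Scrublet calls, 0.11 with equal weight per cell, 0.0522 with abundant genes out of the total, 0.0518 without the 3 deepest cells and 0.0532 without lymphoid classes. The abundant genes were the mitochondrial, haemoglobin and immunoglobulin genes, Sftpc and Scgb1a1.

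T or NK cell-like cells (0.19): 0.041 at 10% mitochondrial UMIs, 0.011 with up to 4000 genes and also without Scrublet calls, 0.013 with equal weight per cell, 0.067 by single-cell markers, and reversed to −0.025 without the 3 deepest cells and −0.052 in cells of 1000 to 5000 UMIs. The count of 2 higher genes became 0 at 10% mitochondrial UMIs, up to 4000 genes, without Scrublet calls and at a fold of 1.0, 1 by single-cell markers and 6 when scaled to other UMIs.

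B cell-like cells (−0.49): −0.40 by single-cell markers, −0.36 with equal weight per cell, −0.38 with abundant genes out of the total, −0.43 without the 3 deepest cells, −0.18 in cells of 1000 to 5000 UMIs, −0.22 without S100a6 and −0.40 without Jchain.

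Fibroblast-like cells (−0.044): reversed to 0.011 at 10% mitochondrial UMIs and 0.031 by single-cell markers, and −0.11 with equal weight per cell. Macrophage or monocyte-like cells (−0.27): reversed to 0.013 by single-cell markers, −0.33 with equal weight per cell, −0.43 without the 3 deepest cells and −0.10 in the shared cluster.

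T or NK over endothelial cell-like cells stayed between 1.87 and 2.25 in Normoxia: 2.13 at 10% mitochondrial UMIs, 2.21 with up to 4000 genes, 2.19 without Scrublet calls, 1.90 at resolution 2.0, 2.02 with the members allowed in clustering, 1.87 by single-cell markers, 2.10 with equal weight per cell and 2.25 without the 3 deepest cells. In Hypoxia the same settings gave 1.77, 1.79, 1.73, 1.69, 1.76, 1.64, 1.70 and 1.80, and resolution 0.5 gave 1.72.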
